A study of Mus musculus with 4 samples.

Results

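The genes described here encode non-collagen proteins of the extracellular matrix, together with enzymes that make, crosslink or cut it. They were taken from a list of 49 genes. A gene was measured where the platform annotation assigns at least 1 probe set to it and to no other gene, and its brightest probe set by mean log2 signal over the 4 arrays stands for it. This gave 47 of the 49, out of 18193 genes with such a probe set. Fbn1 (fibrillin-1) and Loxl2 (a lysyl oxidase) had no probe set assigned to them alone in the annotation used here and were not analysed here. The 47 were read in 6 classes: proteoglycans and hyaluronan, fibrillins with microfibrils and elastic fibres, laminins with the basement membrane, cartilage matrix, fibronectin with matricellular proteins, and matrix turnover.

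The samples were autopods, the distal limb bud pieces that form hand or foot, of C57BL/6 mouse embryos at E11.25. The 2 Hox13dKO samples were Hoxa13-/- and also homozygous for HoxDdel, a deletion that takes out Hoxd11, Hoxd12 and Hoxd13 together. The 2 controls were wild type. Pieces were cut to the Hoxd13 expression domain from forelimbs and hindlimbs alike, so each value averages both limbs. By their titles the samples within a group are biological replicates, and no label used here says how many embryos each one held. The p-values measure the spread between these samples only.

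Fibronectin and versican with hyaluronan fill the space between mesenchymal cells of the early limb bud. Fibrillin microfibrils give the tissue elasticity and hold latent growth factors of the TGF-beta and BMP families, and laminins with nidogens and perlecan build the sheet under the ectoderm and around vessels, nerves and muscle. Aggrecan, link protein and matrilins arrive as condensations turn into cartilage.

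Values are microarray signals on a linear scale, in the units of the MAS5 program, which the authors had brought to a common trimmed mean of 500.003 per array. Signals under 14.1 units were raised to that floor before log2 was taken, and probe sets with a geometric mean under 39.6 units were not tested. Differences are log2 differences, Hox13dKO minus wild type, with the SE of a limma fit across all probe sets tested, and a gene passed at an adjusted p under 0.05 over all of them. Signals of different probe sets depend on probe binding and are not set against each other.

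Of the targeted genes, Hoxd13 lay below the floor on both Hox13dKO arrays against signals of 14540 and 16117 in wild type, and Hoxa13, Hoxd12 and Hoxd11 were lower as well (adjusted p from 6.41e-07 to 0.00778). Signal was left for some of them in Hox13dKO: Hoxd11 read 348 and 454 against 1831 and 1745 (4.50-fold lower), and Hoxa13 52.4 and 58.0. Hoxd12 read 5.23, below the floor, and 33.5. Whether these probe sets lie within the deleted sequence was not tested. All 10 limb mesenchyme markers were measured above the filter, and 0 of them passed. Both Hox13dKO arrays lay above both wild-type arrays for 2 of them and below for 4, beside 17.1% and 20.1% of all genes. Of 9 proximal limb markers, 3 passed as higher (Hoxa11, Hoxd9 and Shox2), beside 0.161% of all genes. Arrays of 7 were separated with Hox13dKO above, beside 17.1% of all genes. Hoxa11 and Hoxd9 belong to the Hox clusters that carry the mutations. Summed signals of the list were 24521 and 24099 in Hox13dKO against 8367 and 6615 in wild type. Of these sums Hoxd9 gave 9282 and 8878 against 2147 and 1516, and Hoxa11 5490 and 5628 against 1568 and 1492. None of the limb mesenchyme and proximal limb markers lay at the floor on all 4 arrays. Their part in the matrix results was not tested. The median signal was higher on replicate 2 than on replicate 1 in both groups (81.2 against 66.1 in Hox13dKO, 85.7 against 65.8 in wild type).

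Of the 44 matrix genes that could be tested, 1 fell in Hox13dKO and 0 rose. It was Thsd4, which encodes a microfibril-binding protein with thrombospondin repeats. Over all 13072 genes tested by brightest probe set, 40 passed (0.306%), 21 higher and 19 lower (0.161% and 0.145%). At an unadjusted p under 0.05 there were 9 matrix genes, 5 higher and 4 lower, beside 7.25% of all genes. Both Hox13dKO arrays lay above both wild-type arrays for 14 matrix genes and below them for 6, and the remaining 24 overlapped. Over all genes, 37.2% were separated, 17.1% with Hox13dKO higher and 20.1% with Hox13dKO lower. The median log2 difference was 0.16 over the 44 and -0.03 over all genes, with 27 of the 44 positive beside 45.8% of all genes. Which genes passed depended on single arrays: 0 passed without Hox13dKO replicate 1 or without Hox13dKO replicate 2, 5 without wild type replicate 1 (Bgn, Has2, Lama2, Lum and Thsd4) and 6 without wild type replicate 2 (Bgn, Has2, Lama1, Lama2, Sparc and Thsd4).

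**Figure D1:**
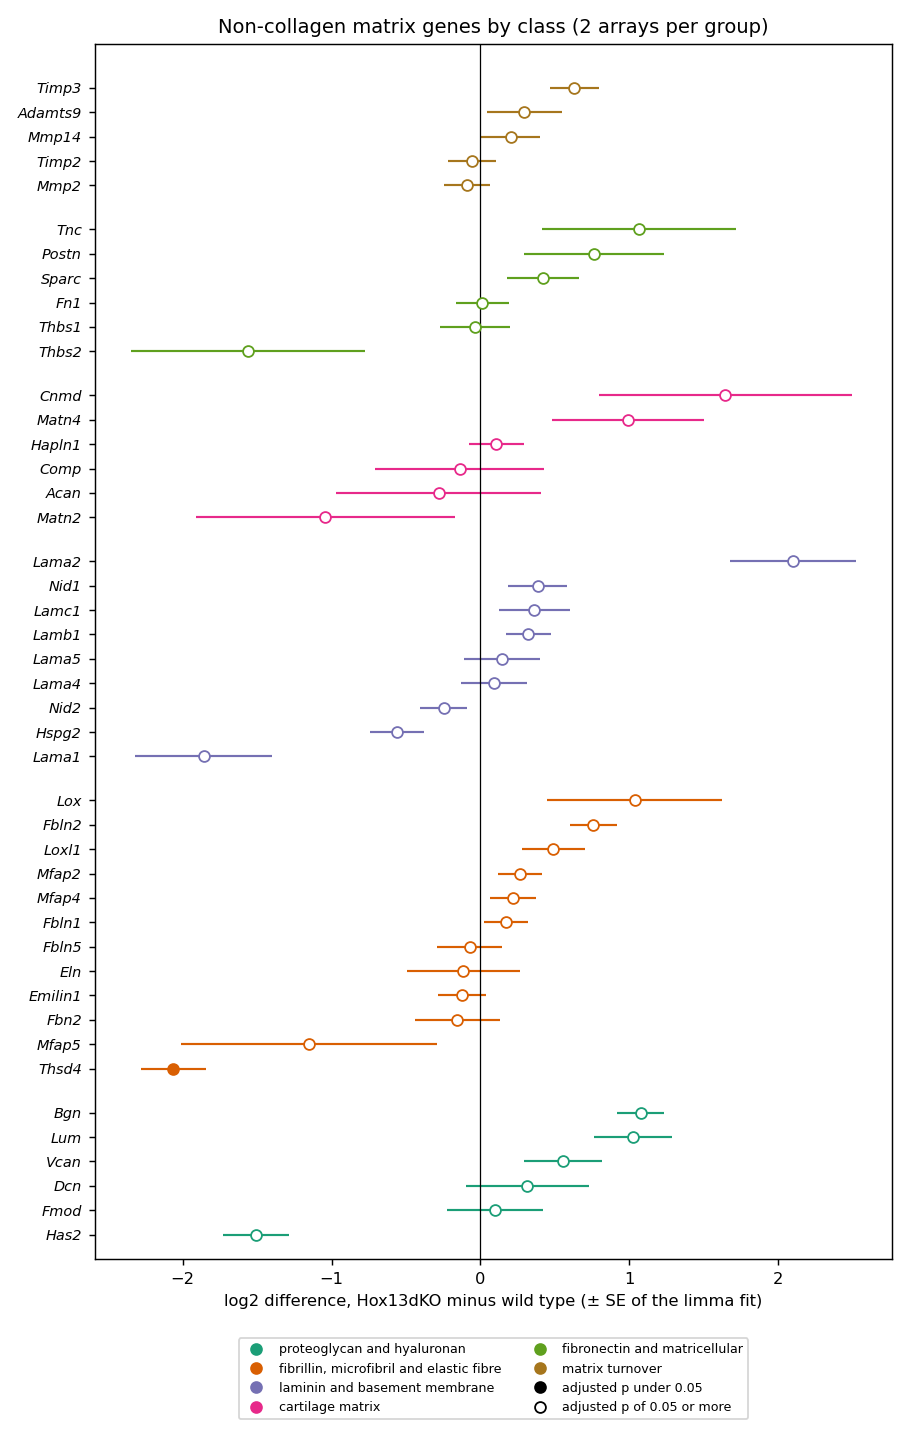
Each point is 1 matrix gene; the horizontal axis is the log2 difference, Hox13dKO minus wild type, with bars of 1 SE from the limma fit on 2 arrays per group, and colours give the 6 classes. Thsd4, at -2.06, is the filled point, the single gene with an adjusted p under 0.05, and Has2 and Lama1 lie on the same side while Lama2 lies at 2.10.

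Among fibrillin, microfibril and elastic fibre genes, Thsd4 fell by 2.06 ± 0.22 on the log2 scale (4.18-fold). Its signals were 183 and 217 in Hox13dKO against 795 and 873 in wild type, means of 199.9 ± 23.5 and 834 ± 55.2 (SD, n = 2 each). The groups did not overlap, and the adjusted p was 0.0171 (limma). This rests on 1 probe set. The other one read 3.80 and 19.3 in Hox13dKO against 7.10 and 5.60 in wild type and was too dim to test. In bulk tissue, fewer cells that make a transcript and less transcript per cell cannot be told apart. Several of the 16 alternative settings, such as those of filter and variance model, change its p but cannot change the difference. Over the others, including each array left out, the difference stayed between -2.18 and -1.94. It did not pass without Hox13dKO replicate 1 (adjusted p = 0.104), without Hox13dKO replicate 2 (0.0974), with no filter on dim probe sets (0.321) or without the intensity trend in the variance model (0.591).

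Because Thsd4 was the member that passed, its start regions are shown, with that of Fbln2, a member of the same class whose difference had the opposite sign. The sequences are from RefSeq on build GRCm38.p6, each covering the 250 bases before an annotated start, read 5′ to 3′ on the gene's strand. RefSeq gives Thsd4 a pair of starts on the minus strand, start A at chr9:60511036-60511285 and start B at chr9:60141221-60141470, and Fbln2 lies on the plus strand at chr6:91212514-91212763. Capitals mark matches on either strand to CAATAAA, which contains the core of the sequence that HOX13 proteins prefer, CCAAT, the box bound by NF-Y, and GGGCGG, the box bound by Sp factors.
Thsd4 start A: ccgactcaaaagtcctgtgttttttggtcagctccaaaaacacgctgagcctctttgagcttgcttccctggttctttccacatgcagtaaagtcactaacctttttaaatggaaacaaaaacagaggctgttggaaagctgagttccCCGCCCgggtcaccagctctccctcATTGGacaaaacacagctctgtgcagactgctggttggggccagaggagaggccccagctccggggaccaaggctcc
Thsd4 start B: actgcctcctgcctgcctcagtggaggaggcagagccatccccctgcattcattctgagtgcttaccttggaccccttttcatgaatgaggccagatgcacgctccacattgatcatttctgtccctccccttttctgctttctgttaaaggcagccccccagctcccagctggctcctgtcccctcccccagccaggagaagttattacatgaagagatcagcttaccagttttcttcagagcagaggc
Fbln2: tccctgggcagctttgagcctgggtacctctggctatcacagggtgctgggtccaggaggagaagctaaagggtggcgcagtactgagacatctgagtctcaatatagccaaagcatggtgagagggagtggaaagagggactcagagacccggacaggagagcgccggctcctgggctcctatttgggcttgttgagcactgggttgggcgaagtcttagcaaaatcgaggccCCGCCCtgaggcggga
Start A held a GGGCGG match, on the reverse strand as CCGCCC, beginning 102 bases before the start, and a CCAAT match, as ATTGG, 77 bases before it. Start B held none of the 3 motifs, and Fbln2 held a GGGCGG match 16 bases before its start. CAATAAA was absent from all 3 windows. It occurred in 4.20% of all 32851 windows of this length and in 1 of 37 windows of the list, that of Fbln1. GGGCGG occurred in 32.7% of all windows and 22 of the 37, and CCAAT, which overlaps the first motif where a C precedes it, in 33.8% and 11 of the 37. The 37 windows cover 30 of the 49 genes. A match is a string of letters, not a measured binding site.

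The other 11 tested genes of the class did not pass. Fbln2 (fibulin-2, a bridge between matrix fibres) read 1225 and 1351 in Hox13dKO against 743 and 778 in wild type, without overlap, a log2 difference of 0.76 ± 0.16 (adjusted p = 0.191). Loxl1, an enzyme that crosslinks elastin, read 1254 and 981 against 670.4 and 929, also without overlap, and differed by 0.49 ± 0.21 (adjusted p = 0.802). The arrays of Loxl1 nearly met, at 981 and 929, and it differed by 0.26 without wild type replicate 1 and by 0.73 without wild type replicate 2. Lox, the founding lysyl oxidase, read 82.2 and 142 against 35.9 and 77.4 by its brightest probe set (1.04 ± 0.59). By another probe set it read 123 and 233 against 35.5 and 21.0 (2.64 ± 0.59, adjusted p = 0.224). Both Lox probe sets had every Hox13dKO array above every wild-type array, at signals not far above the limit for testing.

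Smaller differences were measured for fibrillin-2 and its partners. Mfap2, which encodes the fibrillin partner MAGP1, read 5376 and 6716 in Hox13dKO against 4752 and 5246 in wild type, a difference of 0.27 ± 0.15 with a 95% interval of -0.08 to 0.61. Fbln1 (fibulin-1, a matrix glycoprotein) read 5617 and 6642 against 5884 and 4981, with overlapping arrays (0.17 ± 0.15). Its second probe set differed by 0.21 and a further, dim one, at 75.5 and 60.4 against 121 and 152, by -1.01. Fbn2, the fibrillin of embryonic tissue, differed by -0.15 ± 0.28, Mfap4 by 0.22 ± 0.15, Emilin1, a regulator of elastic fibre assembly, by -0.12 ± 0.16, Fbln5 by -0.07 ± 0.22 and elastin (Eln) by -0.11 ± 0.38. These 5 overlapped between the groups by their brightest probe sets. A second Fbn2 probe set had the opposite sign and did not overlap, at 1482 and 1144 against 959 and 1079.9 (0.36 ± 0.18, adjusted p = 0.870). Mfap5, at 2.18 and 54.6 against 44.8 and 84.8 with 1 Hox13dKO array below the floor, was too variable to compare (95% interval -3.13 to 0.83). The class median was 0.05, and 0.08 to 0.17 with 1 array left out.

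Among proteoglycan and hyaluronan genes 0 of 6 tested passed, and Has2 and Bgn came closest. Has2, the main synthase of hyaluronan in the limb bud, read 501 and 346 in Hox13dKO against 1115 and 1253 in wild type. That is 2.84-fold lower by the fitted log2 difference of -1.51 ± 0.22, with no overlap (adjusted p = 0.0570, limma). Its second probe set read 337 and 304 against 664 and 915 and gave -1.28 ± 0.23 (adjusted p = 0.102). Both probe sets thus had every Hox13dKO array below every wild-type array. Over 16 alternative settings the adjusted p of Has2 ranged from 0.000679 to 0.591, and the difference from -1.77 to -1.24.

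Bgn (biglycan, a small leucine-rich proteoglycan that binds collagen) read 1382 and 1468 in Hox13dKO against 638 and 716 in wild type, a log2 difference of 1.08 ± 0.16 (2.11-fold; adjusted p = 0.0625, and 0.00226 to 0.591 over the alternatives). Another probe set gave 0.88 ± 0.19 without overlap, and the remaining one 0.57 ± 0.29 with overlap. Lum (lumican, of the same family) read 425 and 529 against 270 and 202, without overlap (1.02 ± 0.26, adjusted p = 0.318). Vcan, encoding versican, the large hyaluronan-binding proteoglycan of limb mesenchyme, read 6078 and 3546 against 3757 and 2659, with the lower Hox13dKO array below the higher wild-type array (0.55 ± 0.26). That difference was 0.17 without Hox13dKO replicate 1, and leaving out Hox13dKO replicate 2 gave 0.94. A second Vcan probe set read 2011 and 1143 against 764 and 781 (0.97 ± 0.25) and another 637 and 558 against 125 and 391 (1.43 ± 0.47), both without overlap and neither past the threshold (adjusted p = 0.331 and 0.567). Vcan and Bgn thus had positive differences by every tested probe set, while Has2 had negative ones.

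Dcn (decorin) differed by 0.32 ± 0.41, from 141 and 272 in Hox13dKO against 128 and 193 in wild type, and Fmod (fibromodulin) by 0.10 ± 0.32. Both overlapped. All 6 tested probe sets of Fmod had positive differences, with the lowest at 0.07 and the 2 highest at 1.30 and 1.498. Ogn (osteoglycin) read 31.1 and 102 against 24.2 and 5.03 and was too dim to test. The class median was 0.44 (0.35 to 0.63 with 1 array left out), and 0.69 where all probe sets of a gene were averaged in place of taking the brightest.

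**Figure D2:**
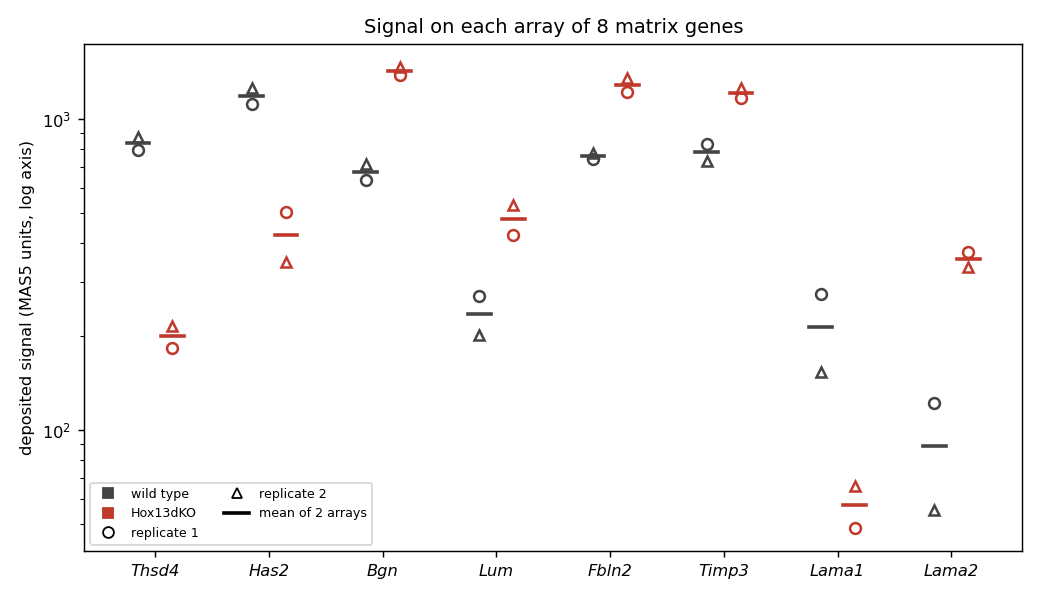
Deposited signal on each array (log axis, MAS5 units) of 8 matrix genes, wild type in grey and Hox13dKO in red, with a circle for replicate 1, a triangle for replicate 2 and a bar at the mean of the 2 arrays. In all 8 the groups do not overlap, which follows from the choice of genes. The same held for 45.5% of the 44 tested matrix genes and 37.2% of all genes. Thsd4, Has2 and Lama1 are lower in Hox13dKO and the others shown are higher, and Thsd4 alone passed the test.

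In the laminin and basement membrane class 0 of 9 passed, and the largest differences were those of a pair of laminin alpha chains, with opposite signs. Lama2, the alpha chain of muscle and nerve basement membranes, read 373 and 334 in Hox13dKO against 122 and 55.4 in wild type (log2 difference 2.10 ± 0.42, 4.29-fold, adjusted p = 0.162). Lama1, the alpha chain of early embryonic basement membranes, read 48.5 and 66.0 against 274 and 154 (-1.86 ± 0.46, 3.63-fold lower, adjusted p = 0.295). Neither overlapped between the groups. Each rests on a single probe set, and the dimmer group of each was near the limit for testing. The wild-type arrays were further apart than the Hox13dKO arrays in both genes, and Lama2 differed by 2.67 without wild type replicate 1 and by 1.53 without wild type replicate 2.

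The chains that pair with these gave smaller values. Lamb1, the beta chain, read 3221 and 3270.5 in Hox13dKO against 2917 and 2314 in wild type (0.32 ± 0.15), without overlap, and its other tested probe sets gave 0.30 and 0.70. Lamc1, the gamma chain, differed by 0.36 ± 0.24 with overlap and, by a dim second probe set, by 1.76 ± 0.66. Lama4 of vessels and Lama5 of epithelia differed by 0.09 ± 0.22 and 0.15 ± 0.26, with overlap in both. Of the linker proteins, nidogen-1 (Nid1) differed by 0.38 ± 0.20, and nidogen-2 (Nid2) by -0.25 ± 0.16, at 1085 and 947 against 1197 and 1208. Hspg2 (perlecan, the heparan sulfate proteoglycan of basement membranes) read 477 and 539 against 735 and 759, without overlap (-0.56 ± 0.18, adjusted p = 0.573). Its second probe set overlapped and had the opposite sign, 0.32 ± 0.43. The class median was 0.15, and 0.02 to 0.33 with 1 array left out.

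Cell types that make basement membrane were measured beside these. Of 7 tested muscle markers, 1 passed as higher (Actc1), beside 0.161% of all genes. Arrays of 5 were separated with Hox13dKO above, beside 17.1% of all genes. The list's summed signal was 1656 and 3802 in Hox13dKO against 519 and 492 in wild type. Of these sums Actc1 gave 880 and 2252 against 116 and 92.7. Differences of 6 muscle markers were positive, beside 45.8% of all genes. Pax3, with 1 array below the floor, had the only negative one, at -1.16 with overlapping arrays. Of 8 endothelial markers 0 passed and all 8 differences were positive (median 0.34), beside 45.8% of all genes. Arrays of 3 were separated with Hox13dKO above. The sums were 3541 and 4518 against 2969 and 3339. Of 9 ectodermal markers 0 passed (median 0.14), with sums of 7949 and 10428 against 8324 and 7663. Arrays of 3 were separated with Hox13dKO above and of 3 with it below, beside 17.1% and 20.1% of all genes. Of 3 tested markers of nerve and Schwann cells 0 passed, with Stmn2 and Tubb3 at -1.08 and -1.29 and Sox10 at 0.18 with overlapping arrays. In none of the 4 lists did a marker lie at the floor on all arrays. The part of these cells in the laminin values was not tested.

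Cartilage matrix genes gave 0 calls among 6 tested, and most of their probe sets were dim. Hapln1, encoding the link protein that ties aggrecan to hyaluronan, read 645 and 574 in Hox13dKO against 566 and 565 in wild type (0.11 ± 0.19, 95% interval -0.32 to 0.53). Its 3 other probe sets gave 0.37, 0.62 and 0.54. Acan (aggrecan) read 34.7 and 122 against 62.5 and 99.8, with the Hox13dKO arrays outside the wild-type arrays on either side (-0.28 ± 0.69). Matn4 (matrilin-4) read 107 and 282 against 79.3 and 96.7, without overlap (0.99 ± 0.51, adjusted p = 0.872), and differed by 0.30 without Hox13dKO replicate 2 and by 1.69 without Hox13dKO replicate 1. Cnmd, encoding chondromodulin, an inhibitor of vessel growth in cartilage, read 88.4 and 153 against 91.2 and 15.2 (1.64 ± 0.85). Wild type replicate 2 was the lowest array, and the difference was 0.35 without it and 2.94 without wild type replicate 1.

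Matn2 read 62.5 and 6.56 in Hox13dKO, the latter below the floor, and 79.4 and 47.0 in wild type (-1.04 ± 0.87), and was 0.03 without Hox13dKO replicate 2. Comp, a pentameric glycoprotein of cartilage and tendon, differed by -0.14 ± 0.57. Matn1, at 4.08 to 25.6 over the 4 arrays, was too dim to test. The class median was -0.02, and 0.04 to 0.37 with 1 array left out. Beside these, 0 of 6 condensation markers passed, and all 6 differences were positive (median 0.15), beside 45.8% of all genes. Arrays of 3 (Col2a1, Col9a1 and Col11a1) were separated with Hox13dKO above, beside 17.1% of all genes. Col2a1 differed by 0.61 and Sox9 by 0.03.

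Fibronectin and matricellular genes had 0 of 6 past the threshold. Fn1 (fibronectin) read 4370.2 and 3571 in Hox13dKO against 4537 and 3384 in wild type, so that both Hox13dKO arrays fell between the wild-type arrays (0.01 ± 0.18, 95% interval -0.40 to 0.42). A second, far dimmer Fn1 probe set did not overlap, at 226 and 277 against 87.8 and 162 (1.07 ± 0.39, adjusted p = 0.657). Sparc, which binds collagen and tunes cell adhesion, read 3670.1 and 2838 against 1869 and 3122 (0.42 ± 0.24) and, by a second probe set, 2426 and 2748 against 2075 and 2105 (0.31 ± 0.14). By the first, wild type replicate 2 lay between the Hox13dKO arrays, and the difference was 0.048 without wild type replicate 1, while leaving out wild type replicate 2 gave 0.79. By the second the groups did not overlap.

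Tenascin-C (Tnc), an anti-adhesive protein of condensations and tendons, read 105 and 158 against 117 and 32.5 (1.06 ± 0.65). It differed by 0.14 without wild type replicate 2, the low array, and by 1.99 without wild type replicate 1. Periostin (Postn), of fibrous connective tissue, read 106 and 235 against 88.1 and 98.7 (0.76 ± 0.47), without overlap but with the Hox13dKO arrays far apart, and differed by 0.19 without Hox13dKO replicate 2 and by 1.33 without Hox13dKO replicate 1. The anti-angiogenic thrombospondins gave -0.04 ± 0.23 for Thbs1 and -1.56 ± 0.79 for Thbs2. Thbs2 read 13.5, below the floor, and 54.5 against 79.8 and 83.8, and differed by -0.59 without Hox13dKO replicate 1 and by -2.54 without Hox13dKO replicate 2. Thbs4, at 5.80 to 31.1 over the 4 arrays, was not tested. The class median was 0.21, and 0.05 to 0.19 with 1 array left out.

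Of the turnover genes 0 of 5 passed, and Timp3 had the lowest p. Timp3, a matrix-bound inhibitor of metalloproteinases, read 1164 and 1259.9 in Hox13dKO against 832 and 735 in wild type (0.63 ± 0.16, adjusted p = 0.327). Its other 3 probe sets gave 0.81 ± 0.19, 1.01 ± 0.47 and 0.91 ± 0.40, and all 4 separated the groups. Timp2, an inhibitor that also helps activate the gelatinase encoded by Mmp2, differed by -0.05 ± 0.16, and Mmp2 itself, at 3424 and 4094 against 4383 and 3628, by -0.09 ± 0.16. Mmp14, the membrane-bound protease of this trio, differed by 0.20 ± 0.20 with overlap. Its 2 further probe sets, both without overlap, gave 0.61 ± 0.18 and -0.16 ± 0.24, in opposite directions. Adamts9, a protease that cuts versican, read 289.7 and 362 against 268 and 259.9, without overlap (0.29 ± 0.25, adjusted p = 0.938). The class median was 0.20, and 0.03 to 0.32 with 1 array left out.

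Where several probe sets measured a gene, their signs could be compared. Of 24 matrix genes with at least 2 tested probe sets, 17 had the same sign in all of them (70.8%), beside 48.7% of 6128 genes over the whole array. Probe sets of 1 gene share the same arrays and RNA, so their agreement is no replication of the embryos. The 7 with mixed signs were Fbn2, Fbln1, Lama5, Hspg2, Thbs1, Mmp14 and Timp2. The brightest probe sets of these ranged from -0.56 to 0.20.

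**Figure D3:**
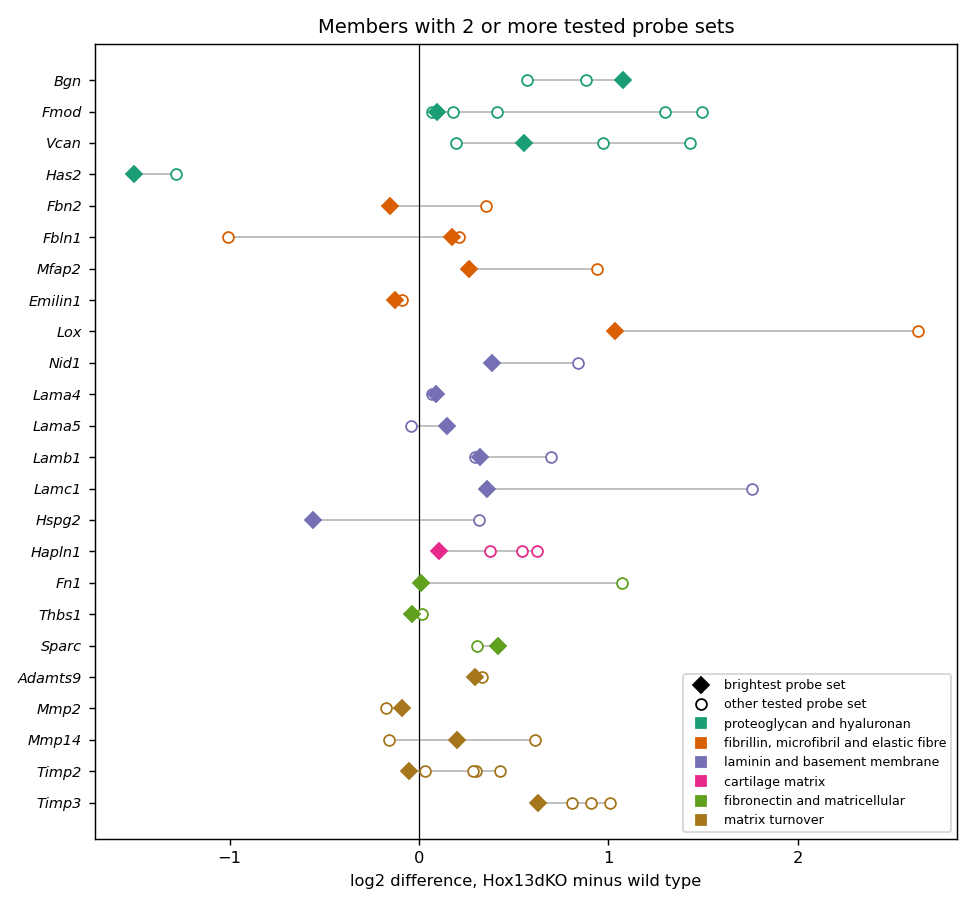
Log2 difference, Hox13dKO minus wild type, of every tested probe set of the 24 matrix genes with at least 2; a filled diamond is the brightest probe set, open circles are the others, and colours give the class. All 4 probe sets of Timp3, all 3 of Bgn and both of Has2 lie on 1 side of 0, while Lox (1.04 and 2.64) and Lamc1 (0.36 and 1.76) spread widely.

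Other matrix genes, taken from lists of the same classes and of matrix receptors, had 1 of 94 tested past the threshold, beside 0.306% of all genes. It was Ltbp1, which tethers latent TGF-beta to microfibrils, at 607 and 538 in Hox13dKO against 2523 and 1810.0 in wild type (-1.90 ± 0.20, 3.74-fold lower, adjusted p = 0.0163). A dimmer Ltbp1 probe set gave -1.45 and did not pass. Ltbp1 did not pass without Hox13dKO replicate 1 (adjusted p = 0.0998) or without Hox13dKO replicate 2 (0.150), and its adjusted p ranged from 5.3e-07 to 0.591 over the alternatives. Among the matrix genes of these lists, which leave out collagens, Thsd4 and Ltbp1 were thus the ones called, both lower. The proteins of both are known to bind fibrillin microfibrils, and a shared role was not tested. The median was 0.05 in the class of Thsd4 and -0.02 in the list of Ltbp1. These lists were chosen with earlier results of these data known.

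The others are given by list. Other microfibril genes had 1 of 16 past, Ltbp1, and a median of -0.02. Other matricellular genes had 0 of 9 past, 7 positive, with Sparcl1 at 1.48 ± 0.25 (863 and 1143 against 428 and 296, adjusted p = 0.0850) and Tgfbi at 0.60 ± 0.18. Other basement membrane genes had 0 of 12 past, 10 positive, with Egflam at 1.12 ± 0.22 and Ntn1 at 0.51 ± 0.19. The list of other proteoglycan and hyaluronan genes had 0 of 12 past, 5 positive. In it Smoc2, a Sparc relative rather than a proteoglycan, was at 1.23 ± 0.28 and the hyaluronan receptor gene Cd44 at 0.63 ± 0.25. Other turnover genes had 0 of 20 past, with Adamts5, encoding a further versican-cutting protease, at -1.28 ± 0.36 and Adamts4 at 0.56 ± 0.30. Other cartilage matrix genes had 0 of 5 past, with Mgp at -0.92 ± 0.50 and Hapln3 at 0.27 ± 0.55, and receptors 0 of 20, with Itgb5 at 0.49 ± 0.14 and Ddr1 at 0.43 ± 0.15.

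Median differences between the groups and between replicates were close in number for the matrix genes. The median size of the log2 difference between groups was 0.34 over the 44 genes, beside 0.34 between the Hox13dKO arrays and 0.30 between the wild-type arrays. Over all genes the same 3 medians were 0.18, 0.23 and 0.24. A mean of 2 arrays varies less than a single array, so the first value is not measured on the same footing as the others. With replicate spread alone it would be expected to be the smallest. It was the smallest over all genes but not over the 44, and this was not tested.

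**Figure D4:**
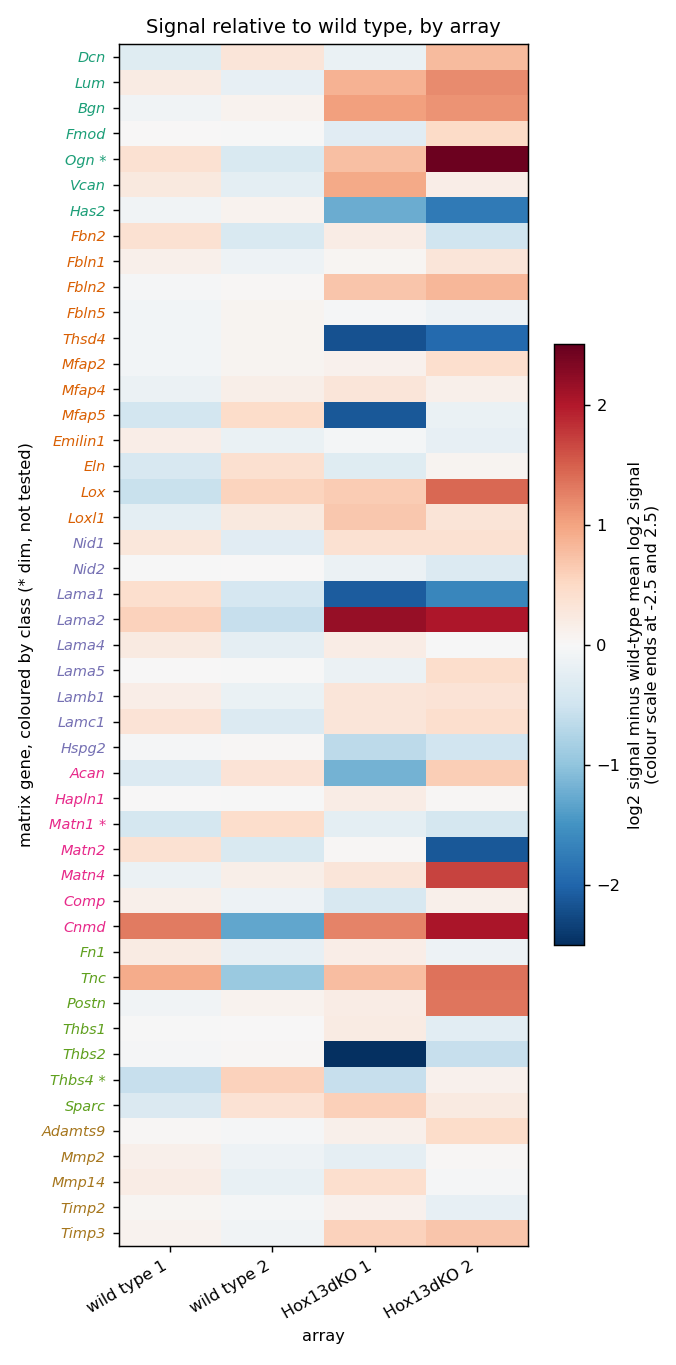
Log2 signal on each of the 4 arrays, after the floor and minus the wild-type mean of the gene, for the 47 measured matrix genes in class order; red is above and blue below the wild-type mean, and an asterisk marks the 3 genes too dim to test. Thsd4, Has2 and Lama1 are blue on both Hox13dKO arrays, Lama2, Bgn and Lum are red on both, and Cnmd and Tnc differ between the wild-type arrays.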

How the data were processed

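The deposited values are signal intensities per probe set on a linear scale, made by the authors with MAS5 (version not given in the sources used here), per the submitters' processing notes; cRNA was labelled with biotin by a one-cycle Affymetrix protocol, per the labels' protocols. MAS5 subtracts background and scales each array. Detection calls and scanner data were not used here, so background could not be set per probe set, and 2 arrays per group limit the precision.

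Of 45101 probe sets, 34958 carried 1 gene symbol, 932 several and 9211 none; 64 controls were left out. The floor was the 20th percentile of all signals (14.1 units) and the filter the 40th percentile of mean log2 signal, which left 27022 probe sets. These were fitted with limma 3.58.1 in R 4.3.3 (lmFit, eBayes with intensity trend, two-sided, Benjamini-Hochberg adjustment over all of them; 2 residual and 6.05 prior degrees of freedom). The steps were tested on simulated arrays. Named with array values were the members past the threshold, the 4 of each class with the lowest p and the member of each class with the highest wild-type signal, and of other lists those past the threshold, else the 2 with the lowest p. Values of further members, probe sets and markers were chosen after they were seen. The members and lists were chosen with earlier results of these data known. The alternatives were those of normalization, floor, filter, variance model, replicate block, probe sets used, threshold and each array left out. Figures were drawn with matplotlib 3.10.9.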

Additional observations from a re-analysis of the deposited data

How the results depend on the processing

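Numbers of calls moved with the filter, the centring, the variance model, the replicate block and single arrays, and the cause was not tested. Over all tested probe sets 56 passed, and 213 did with median centring, 0 with no filter (3159 at an unadjusted p under 0.05, limma), 1 without the intensity trend (1696 unadjusted), 95 with 1 probe set per gene, 111 at an adjusted p under 0.10, and 11 to 525 with 1 array left out, where the lone array is assumed to vary like the others. For the 44 matrix genes, 1 became 4, 0 (9 unadjusted), 0 (9 unadjusted), 3, 3 and 0 to 6 under the same settings, and 2 without _x_at and _s_at probe sets or with probe sets averaged per gene. For the other matrix genes, 1 became 2, 0, 0, 2, 2 and 0 to 4. With the replicate number as a block, 418 probe sets, 6 matrix genes (Bgn, Fbln2, Has2, Lama2, Thsd4 and Vcan) and 4 other matrix genes passed. Same-numbered arrays deviated together (r = 0.198 over tested probe sets), but with 2 arrays per group and no stated pairing this is a hint only.

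The proteoglycan median of 0.44 was 0.55 with no filter, 0.69 with the mean over probe sets and 0.35 to 0.63 with 1 array left out. The matricellular median of 0.21 was 0.012 with no filter, 0.012 with a stricter filter and 0.45 with the mean over probe sets. Signs reversed for Fbln1 with the mean over probe sets (-0.21), and with 1 array left out for Matn2 (-2.12 to 0.032), Fn1 (-0.20 to 0.22), Mmp2 (-0.23 to 0.045) and Mmp14 (-0.022 to 0.43). Of 452 comparisons of named genes with the main result, 414 kept their sign and their side of the threshold. Settings of filter, variance model, replicate block and threshold cannot change a difference by the same probe set, only whether it passes. The 414 is thus no measure of how stable the signs are. Signals near the floor limit what dim genes can show.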
